A study of Mus musculus with 6 samples.

Results

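Respiratory chain genes were described across the nuclei of 3 mouse retina libraries: every Gene Expression row whose symbol starts with mt-, Nduf, Sdh (Sdha to Sdhd), Uqcr, Cox4 to Cox8 or Atp5, which gave 107 of 32285 genes. Of these, 13 were mitochondrially encoded (7 in complex I, 1 in complex III, 3 in complex IV and 2 in complex V) and 94 were nuclear-encoded. The nuclear-encoded genes comprised 85 subunit genes (37 in complex I, 4 in complex II, 8 in complex III, 19 in complex IV and 17 in complex V), 8 assembly factors of the Ndufaf type, and the supercomplex factor Cox7a2l. Ndufa4 and Ndufa4l2 were placed with complex IV, where their products are now assigned.

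The study expressed Wif1, a secreted inhibitor of Wnt signalling, in the retina of C57BL/6J mice from an adeno-associated virus vector (AAV2/2) under the CMV promoter, in a work on normal-tension glaucoma. Nuclei were collected at 4 weeks and at 2 weeks of the vector (written AVI in the labels, which do not spell it out), and from naïve wild-type retinas as the control. Each group had 2 eyes and gave 1 library; whether the eyes of a group came from 1 animal is not given. The series' design text names 2 Wif1 vectors, CMV-Wif1-HA and a second with an added GFP (CMV-Wif1-HA-IRES-GFP), and not which one these eyes received. A GFP vector was the control elsewhere in the study, so that vector, injection and Wif1 cannot be told apart here. Papain-dissociated retina was lysed to nuclei, and RNA and open chromatin were read from the same nuclei on the 10x Genomics multiome platform. With 1 library per group there was no test between groups. Intervals are exact 95% intervals for counting error only (Poisson for levels, conditional binomial for ratios, Clopper-Pearson for shares), and they do not hold the spread between animals.

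The respiratory chain passes electrons from NADH and succinate through complexes I to IV to oxygen, pumping protons that complex V uses to make ATP. The mitochondrial genome encodes core subunits of complexes I, III, IV and V, as long transcripts that are cut into single RNAs inside the organelle, while complex II and most other subunits are encoded in the nucleus. Photoreceptors pack mitochondria into their inner segments and depend heavily on this chain. Nuclei hold no mitochondria, so mitochondrially encoded RNA in a nuclear preparation comes from outside the nucleus, and its level does not measure the mitochondrial RNA of the cell.

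The libraries held 10334 barcodes at 4 weeks, 13528 at 2 weeks and 8556 in the control, with 19997276, 14568384 and 21805441 unique molecular identifiers (UMIs, counted RNA molecules) in that order. After filters on depth, mitochondrial share and doublets, 8838, 9085 and 7129 nuclei were kept, with a median of 1196, 805 and 1645 UMIs. Clusters were named from fixed marker genes. Rod-like nuclei numbered 5928 at 4 weeks, 5806 at 2 weeks and 4091 in the control, and bipolar-like nuclei 1625, 1608 and 1658. Cone-like nuclei numbered 460, 476 and 403, amacrine-like 110, 213 and 419, Müller-like 229, 278 and 113, and endothelial-like 74, 60 and 70. Ganglion-like nuclei, the cells lost in glaucoma, numbered 2, 1 and 21 and were too few to compare. Between 142 and 207 barcodes were shared by any pair of libraries. The 2-week and 4-week libraries were shallower than the control, and the cap of 10% mitochondrial UMIs left out 3.96% of nuclei at 4 weeks, 2.17% at 2 weeks and 10.1% in the control.

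Mitochondrially encoded RNA was lower at both times after the vector than in the control, in each of the 6 classes compared. In rod-like nuclei it took 1.18% of UMIs at 4 weeks and 0.889% at 2 weeks, against 2.77% in the control. That was 0.426 times the control level at 4 weeks (0.422 to 0.430) and 0.321 times at 2 weeks (0.318 to 0.325). Rods at 4 weeks thus lay above rods at 2 weeks, at 1.33 times their level, and far below the control. Leaving the nuclei over the cap in gave 0.420 at 4 weeks and 0.255 at 2 weeks, and a cap of 5% gave 0.538 and 0.498.

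The other retinal neurons and glia had the same direction with different sizes. Bipolar-like nuclei held 2.58% at 4 weeks and 2.83% at 2 weeks, against 4.04% in the control, which was 0.639 and 0.701 times the control. Cone-like nuclei held 2.596% at 4 weeks and 3.53% at 2 weeks, against 3.95% in the control, so that cones at 2 weeks, at 0.894 times the control (0.881 to 0.906), were the nearest to it of all 12 values. Amacrine-like nuclei were at 0.471 and 0.506 times the control, Müller-like nuclei at 0.456 and 0.396 times, and endothelial-like nuclei at 0.681 and 0.583 times, at 4 weeks and 2 weeks in that order. Amacrine-like nuclei sat in different sub-clusters in each library, and over the 4 sub-clusters with at least 10 nuclei in every library (81 of 110 nuclei at 4 weeks, 123 of 213 at 2 weeks and 105 of 419 in the control) they were at 0.453 and 0.428 times. The library at 2 weeks was the lower of the treated pair in rod-like, Müller-like and endothelial-like nuclei, and the library at 4 weeks in cone-like and bipolar-like nuclei. In amacrine-like nuclei it was the library at 4 weeks over all sub-clusters and the library at 2 weeks over those 4. The order in bipolar-like nuclei also depended on cluster 9, described below. Without it they held 2.34% at 4 weeks and 2.24% at 2 weeks, against 4.11% in the control, so the library at 2 weeks was then the lower.

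Nuclear-encoded subunit RNA differed less from the control in every class and time but cones at 2 weeks, and not always in the same direction. In rod-like nuclei it took 0.837% of UMIs at 4 weeks and 1.13% at 2 weeks, against 1.23% in the control, which was 0.680 times the control at 4 weeks (0.672 to 0.687) and 0.922 times at 2 weeks (0.911 to 0.932). The value at 2 weeks turned to 1.06 times under a cap of 5%. In bipolar-like nuclei it was 0.904 times the control at 4 weeks (0.895 to 0.914) and 1.214 times at 2 weeks (1.201 to 1.227), so that the 2 weeks library lay above the control while its mitochondrially encoded RNA lay below. One of 11 bipolar-like clusters carried most of that: cluster 9, with 576 of 1608 nuclei at 2 weeks and 562 of 1658 in the control, held 1.66% at 2 weeks, against 1.11% in the control, and without it the class was at 0.846 times the control at 4 weeks and 1.06 times at 2 weeks (1.04 to 1.07). Cone-like nuclei were at 0.734 and 0.864 times, amacrine-like at 0.708 and 0.888 times, Müller-like at 0.774 and 0.791 times, and endothelial-like at 0.958 and 1.236 times the control, at 4 weeks and 2 weeks in that order. At 4 weeks the nuclear-encoded level lay below that at 2 weeks in all 6 classes, at 0.738 to 0.978 times it. In Müller-like nuclei that interval reached 1 (0.943 to 1.014). In endothelial-like nuclei at 4 weeks the interval over the control also held 1 (0.901 to 1.019), and in amacrine-like nuclei at 2 weeks the level was 1.01 times the control under a cap of 5%. Over the 4 amacrine-like sub-clusters that every library filled, the nuclear-encoded level was 0.908 times the control at 4 weeks (0.862 to 0.957) and 1.15 times at 2 weeks (1.10 to 1.21), so the direction at 2 weeks turned.

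**Figure D1:**
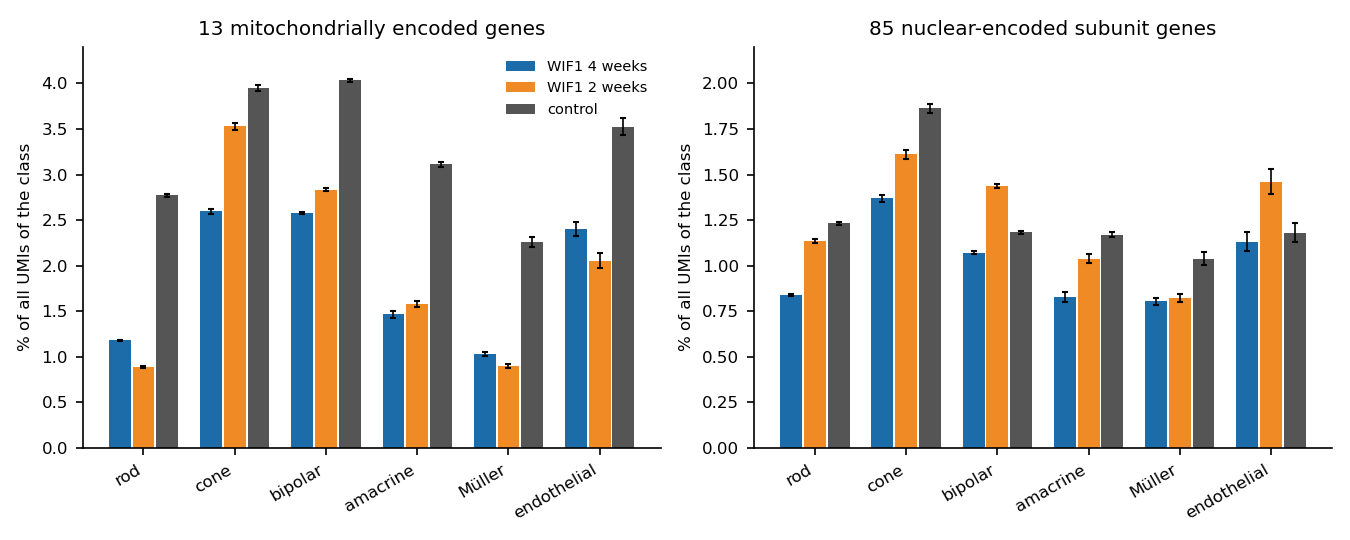
Percent of all UMIs of a class that came from the 13 mitochondrially encoded genes (left) and from the 85 nuclear-encoded subunit genes (right), for 6 classes and 3 libraries. Bars are single libraries and error bars exact 95% Poisson intervals; the control bar is the tallest of the 3 in every class on the left, while on the right the bar at 2 weeks is the tallest in bipolar-like and endothelial-like nuclei.

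Measures of RNA quality, depth and other cells moved with these differences, and their part in them was not tested. Malat1, a long RNA that stays in the nucleus and was looked at after the data were seen, took 4.60% of rod-like UMIs at 4 weeks and 4.83% at 2 weeks, against 3.83% in the control. Median depth in rod-like nuclei was 1025, 702 and 1164 UMIs, at 4 weeks, 2 weeks and in the control. With every rod-like nucleus thinned to 500 UMIs, mitochondrially encoded RNA was 1.11% at 4 weeks and 0.847% at 2 weeks, against 2.48% in the control. Thinning leaves the expected share of each nucleus unchanged, so it cannot show what part depth has. In rod-like nuclei of 500 to 750 UMIs the share was 0.953%, 0.716% and 1.84%, in the same order. From 750 to 1000 UMIs it was 0.855%, 0.986% and 1.53%, and from 1000 to 1500 UMIs 1.18%, 1.20% and 2.30%. The control was highest in these bins, while the order of the treated pair differed between them. The share of rod-like nuclei with a mitochondrial UMI, after the same thinning, was 82.8%, 73.5% and 94.8% (94.4%, 81.1% and 99.4% before it). Rod RNA, estimated from the levels of rod markers relative to rods, made up 5.57%, 3.91% and 18.4% of Müller-like UMIs. In bipolar-like nuclei it made up 7.40%, 5.46% and 13.8% of UMIs, both at 4 weeks, 2 weeks and in the control. In endothelial-like nuclei that share was 37.0%, 19.4% and 26.1%, highest at 4 weeks and not in the control, and Malat1 took 3.245%, 3.56% and 3.42% of their UMIs, so the class did not follow the others in either measure at 4 weeks. With the rod profile subtracted, the mitochondrially encoded level stood at 0.476 and 0.417 times the control in Müller-like nuclei and at 0.634 and 0.694 times in bipolar-like nuclei, at 4 weeks and 2 weeks. In endothelial-like nuclei it then stood at 0.822 and 0.616 times, and the nuclear-encoded level at 1.12 and 1.32 times.

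Rod-like nuclei fell into clusters that the libraries filled unequally. A cluster whose leading genes included the phototransduction genes Gnat1 and Gngt1 held 904 of 5928 rod-like nuclei at 4 weeks, 273 of 5806 at 2 weeks and 1210 of 4091 in the control. It was rich in mitochondrially encoded RNA, with 2.69% of UMIs at 4 weeks, 2.01% at 2 weeks and 4.31% in the control, and in nuclear-encoded subunit RNA, with 1.26%, 1.69% and 1.72%. Within each of 9 rod-like clusters with at least 50 nuclei per library, the mitochondrially encoded level was below the control at both times, at 0.433 to 0.624 times at 4 weeks and 0.307 to 0.522 times at 2 weeks. The nuclear-encoded level was below the control in all 9 at 4 weeks (0.681 to 0.874 times). At 2 weeks it was higher in 5 of the 9 clusters and lower in 4, at 0.973 to 1.22 times, so the value of 0.922 over all rods was not seen within any of them. Müller-like nuclei were split likewise: one sub-cluster held 162 of 278 at 2 weeks, and another 120 of 229 at 4 weeks and 48 of 113 in the control. Within the second of these the mitochondrially encoded share was 0.528% at 4 weeks, against 0.842% in the control. Amacrine-like sub-clusters were also filled unequally. One rich in both kinds of RNA, with 4.85% mitochondrially encoded and 1.98% nuclear-encoded UMIs in the control, held 6 of 110 nuclei at 4 weeks, 6 of 213 at 2 weeks and 53 of 419 in the control. Among bipolar-like clusters the nuclear-encoded level at 4 weeks was lower in 9 of 10 and at 2 weeks higher in 6 of 9.

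The mitochondrially encoded genes were described one by one in rods, the largest class. For single genes, a call meant a level at least 2-fold from the control with at least 30 UMIs in the higher library. At 4 weeks 9 of the 13 were called lower, when 1.03% of the 10913 genes measured were, and at 2 weeks all 13 were called lower, when 1.75% of 10663 were. At 1.5-fold all 13 were lower at both times. Levels of single genes are given as CPM, UMIs scaled to the same total in each class and library. The complex I gene mt-Nd1 had 968 CPM at 4 weeks and 609 at 2 weeks, against 3061 in the control. It was at 0.32 and 0.20 times the control, the lowest of the 13 at 4 weeks. mt-Nd5, another complex I subunit, had 177 and 81.8 CPM, against 382 CPM in the control, and mt-Nd6, the one gene of the set read from the other strand, had 12.2 and 6.09 CPM, against 23.8 CPM.

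The remaining complex I genes were nearer to the control at 2 weeks than these 3. mt-Nd2 had 793 CPM at 4 weeks and 605 CPM at 2 weeks, against 1905 CPM in the control. mt-Nd3 had 642 and 392 CPM, against 1350 CPM in the control, and mt-Nd4 had 762 and 641 CPM, against 1920 CPM. In these genes the 2 treated libraries did not differ by as much as either did from the control. mt-Nd4l, whose reading frame overlaps that of mt-Nd4 on a shared transcript, had 67.7 and 35.5 CPM, against 112 CPM in the control.

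In complexes III, IV and V the order of libraries was the same. mt-Cytb, the one mitochondrially encoded subunit of complex III, had 1497 CPM at 4 weeks and 1404 CPM at 2 weeks, against 3629 CPM in the control, and was the gene with the least difference between the treated libraries. The catalytic core of complex IV had mt-Co1 at 671 and 517 CPM, against 1126 CPM in the control, mt-Co2 at 1833 and 1248 CPM, against 3867 CPM, and mt-Co3 at 2288 and 1963 CPM, against 5242 CPM. mt-Co1, at 0.60 and 0.46 times the control, was the nearest to it at 2 weeks. The proton channel subunit of complex V, mt-Atp6, had 2063 and 1382 CPM, against 5034 CPM in the control, and mt-Atp8, which overlaps mt-Atp6, had 26.4 and 8.49 CPM, against 44.6 CPM, at 0.59 and 0.19 times the control. mt-Atp8 (3.11 times, 2.19 to 4.51) and mt-Nd5 (2.16 times, 1.92 to 2.43) were the 2 genes called higher at 4 weeks than at 2 weeks, when 1.53% of all genes were. How the counting split reads between overlapping genes, or between these genes and their copies in the nuclear genome, is not given in the sources used here.

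In the other classes single mitochondrially encoded genes passed 2-fold less evenly. In bipolar-like nuclei 0 of 13 were called lower at 4 weeks (0.903% of all genes) and 5 of 13 at 2 weeks (2.44%): mt-Nd1, mt-Nd4l, mt-Nd5, mt-Nd6 and mt-Atp8. In cone-like nuclei 0 of 13 were called lower at 4 weeks (1.15%) and 1 of 13, mt-Nd6 at 0.43 times the control, at 2 weeks (3.29%). Not every gene was below the control in cones: mt-Co1 was at 1.29 times the control at 2 weeks and mt-Atp8 at 1.10 times at 4 weeks. In amacrine-like nuclei 8 of 13 (8.62%) and 6 of 13 (7.94%) were called lower, in Müller-like nuclei 8 of 11 (2.5%) and 10 of 11 (4.42%), and in endothelial-like nuclei 0 of 10 (2.77%) and 2 of 10 (7.3%), at 4 weeks and 2 weeks.

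The make-up of the mitochondrially encoded RNA differed between libraries in a way the classes shared. In rod-like nuclei mt-Nd1 was 8.20% of mitochondrially encoded UMIs at 4 weeks and 6.85% at 2 weeks, against 11.1% in the control. mt-Nd5 was 1.497%, 0.920% and 1.38%, and mt-Cytb 12.7%, 15.8% and 13.1%, so the 2 weeks library stood apart, low for the first and high for the second. mt-Co3 was 19.4%, 22.1% and 18.9%. mt-Nd1 was highest in the control, and mt-Nd5 lowest and mt-Co3 and mt-Cytb highest at 2 weeks, in each of the 6 classes. The order was also seen in the nuclei over the mitochondrial cap, where mt-Nd1 was 7.66%, 6.03% and 10.4%, and in barcodes with fewer than 500 UMIs or 300 genes, where it was 8.60%, 6.70% and 11.7%, at 4 weeks, 2 weeks and in the control. In the control those barcodes numbered 7, with a median of 660 UMIs and 57.5% mitochondrial UMIs, so they were kept out by their genes and not by their UMIs. For mt-Cytb in endothelial-like nuclei the intervals at 2 weeks and in the control overlapped.

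**Figure D2:**
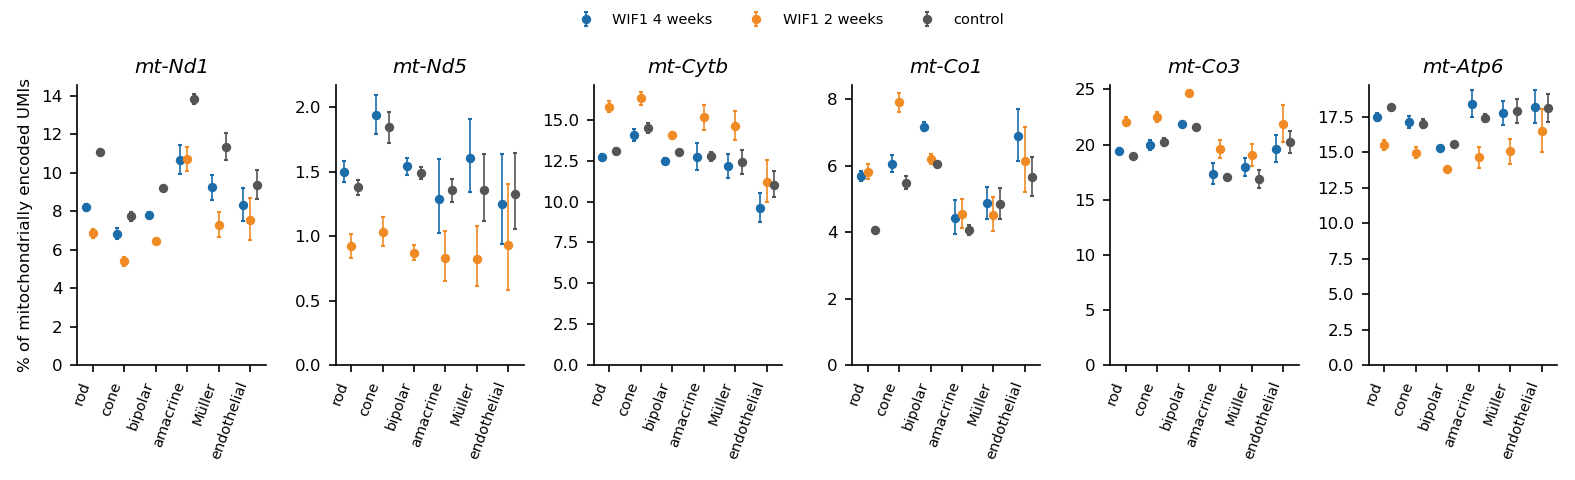
Share of 6 genes among all mitochondrially encoded UMIs, in percent, by class and library; points are single libraries and bars exact 95% binomial intervals. The control points lie highest for mt-Nd1 in all 6 classes, and the points at 2 weeks lie lowest for mt-Nd5 and highest for mt-Cytb and mt-Co3.

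Within each complex, mitochondrially encoded UMIs were set against nuclear-encoded subunit UMIs of the same complex, a ratio that does not depend on the total of the library. It is a ratio of UMIs and not of RNA molecules per gene. Over all complexes it was 1.41 in rod-like nuclei at 4 weeks and 0.783 at 2 weeks, against 2.25 in the control. In rods it was 1.05, 0.556 and 1.90 for complex I, 1.82, 1.27 and 3.06 for complex III, 2.67, 1.39 and 3.504 for complex IV, and 0.981, 0.476 and 1.60 for complex V, at 4 weeks, 2 weeks and in the control. The order of the 3 libraries was the same in all 4 complexes of rods, with the control on top and 2 weeks at the bottom.

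Bipolar-like nuclei had the same order, with 2.41 at 4 weeks and 1.97 at 2 weeks, against 3.41 in the control. Cone-like nuclei did not: over all complexes their ratio was 1.90 at 4 weeks and 2.19 at 2 weeks, against 2.12 in the control. In the same order it was 3.38, 4.03 and 3.48 for complex III and 3.44, 3.82 and 3.53 for complex IV, highest at 2 weeks. The control was highest for complex I, at 1.254, 1.399 and 1.56, and for complex V, at 1.29, 1.279 and 1.351. For complex V the intervals of the control and of both treated libraries overlapped. Over all complexes, Müller-like nuclei had 1.28, 1.09 and 2.18, and amacrine-like nuclei 1.77, 1.52 and 2.66. Endothelial-like nuclei had 2.12, 1.41 and 2.99, each at 4 weeks, 2 weeks and in the control. The direction over all complexes in cones at 2 weeks turned with the processing, to 0.963 times the control under a cap of 5% mitochondrial UMIs.

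**Figure D3:**
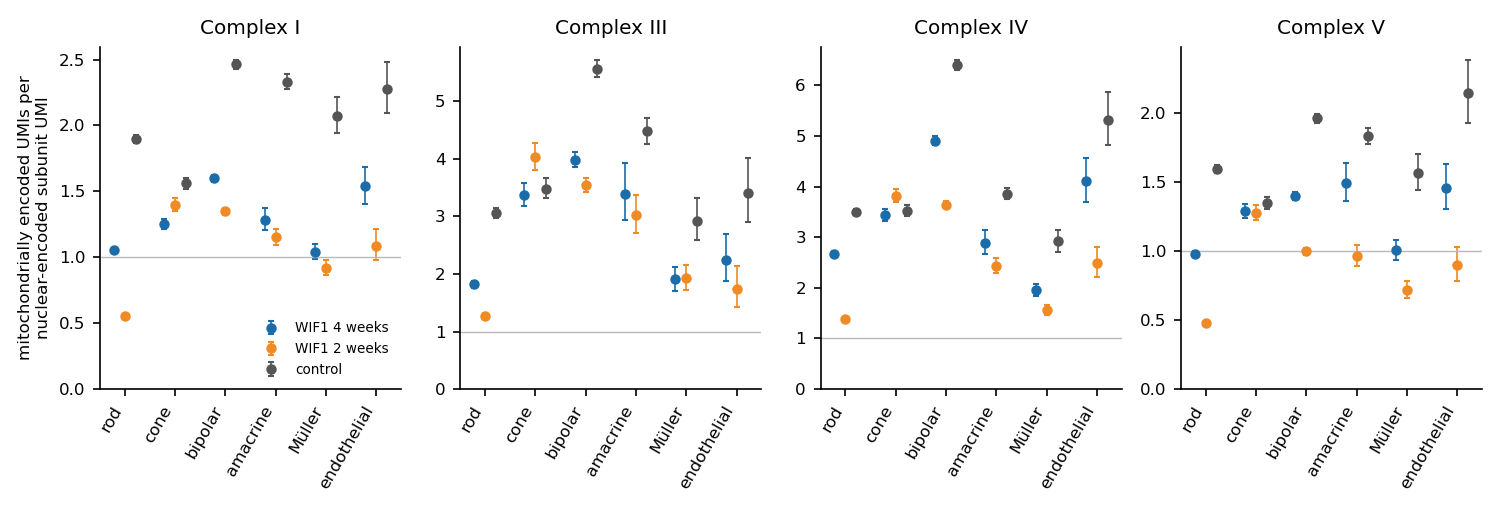
Mitochondrially encoded UMIs per nuclear-encoded subunit UMI of the same complex, by class and library, for the 4 complexes that have both; points are single libraries, bars exact 95% intervals and the grey line marks 1. In rod-like nuclei the points run from the control at the top to 2 weeks at the bottom in each panel. In cone-like nuclei the control is highest for complexes I and V, and 2 weeks for complexes III and IV.

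Among the nuclear-encoded subunits of rods at 4 weeks, complex IV was lowest and complex II nearest to the control. Complex IV subunits together were at 0.614 times the control (0.600 to 0.628), complex V at 0.670, complex III at 0.693, complex I at 0.705, and complex II, which has no mitochondrially encoded subunit and also serves the citric acid cycle, at 0.896 (0.847 to 0.947). At 2 weeks the 5 complexes lay together at 0.902 to 0.934 times the control. In bipolar-like nuclei at 2 weeks complex IV was highest, at 1.32 times the control (1.29 to 1.35), and complex II was at 0.972 (0.911 to 1.04). In rods at 4 weeks and in bipolar-like nuclei at 2 weeks complex II was thus the nearest to the control; in rods at 2 weeks, at 0.902, it was the lowest of the 5. The median over the 4 complex II genes in rods at 2 weeks was above 0, at a log2 ratio of 0.11, where their summed level was below the control. Assembly factors of the Ndufaf type were at 0.927 times the control in rods at 4 weeks (0.881 to 0.976) and 1.13 times at 2 weeks (1.07 to 1.19).

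Single nuclear-encoded genes were mostly small steps from the control. In rods 0 of 77 subunit genes were called lower at either time, against the same background of 1.03% and 1.75% of all genes, and 0 of 77 were called higher (0.302% at 4 weeks and 2.79% at 2 weeks). At 1.5-fold 41 of 77 were lower at 4 weeks, when 5.33% of all genes were, and 2 of 77 at 2 weeks, when 6.58% were. The direction was uneven: of 81 subunit genes with at least 10 UMIs over the libraries compared, 76 were below the control at 4 weeks and 5 above, and of 80 at 2 weeks 50 were below and 30 above. The median log2 ratio was -0.60 at 4 weeks and -0.14 at 2 weeks for nuclear-encoded subunits, and -1.11 and -1.66 for mitochondrially encoded genes. In bipolar-like nuclei 63 of 80 were below the control at 4 weeks and 65 of 80 above it at 2 weeks, with medians of -0.17 and 0.23.

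The subunit with the most UMIs in each complex showed these patterns in rods. Atp5b, the catalytic beta subunit of complex V, had 308 CPM at 4 weeks and 369 CPM at 2 weeks, against 451 CPM in the control. Ndufa4 (complex IV) had 381 and 616 CPM, against 662 CPM in the control, and Uqcrh, the hinge protein of complex III, had 162 and 203 CPM, against 260.0 CPM. All of these were lowest at 4 weeks. Ndufc2 (complex I) had 106 and 163 CPM, against 150 CPM in the control, and was above it at 2 weeks, at 1.09 times with an interval of 0.983 to 1.20. Sdha, the flavoprotein of complex II, ran the other way, with 211 CPM at 4 weeks (0.934 times the control, 0.866 to 1.01) and 161 CPM at 2 weeks (0.710 times, 0.647 to 0.778), against 226 CPM in the control. Ndufaf2, the assembly factor with the most UMIs, had 171 and 191 CPM, against 176 CPM in the control, and both intervals held 1.

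The extremes among nuclear-encoded genes in rods included Cox7a2l, known as a supercomplex factor, whose function was not measured here. It had 60.9 CPM at 4 weeks and 48.1 CPM at 2 weeks, against 98.4 CPM in the control, and at 0.49 times (0.42 to 0.57) it was the lowest nuclear-encoded gene at 2 weeks. It was also below the control in cone-like nuclei, with 72.4 and 69.4 CPM, against 155.6 CPM, and in bipolar-like nuclei, with 53.3 and 42.5 CPM, against 68.0 CPM. Cox7a2l is not among the subunit genes, so the counts of calls leave it out. It passed 2-fold in rods at 2 weeks (1.75% of all genes) and in cone-like nuclei at 4 weeks (1.15%) and 2 weeks (3.29%). At 4 weeks the lowest in rods were Atp5o, a stalk subunit of complex V, with 73.3 CPM at 4 weeks and 100.1 CPM at 2 weeks, against 138.7 CPM in the control, then Ndufaf8 and Ndufb4. Above the control at 4 weeks were the assembly factors Ndufaf6 (35.1 CPM, against 29.97 CPM in the control) and Ndufaf7 (55.7 CPM, against 51.1 CPM). Ndufaf7, a methyltransferase of complex I assembly, was further above it at 2 weeks, at 79.4 CPM and 1.55 times the control, and Sdhd and Atp5k stood at 1.31 and 1.29 times. At 2 weeks Atp5h (151.4 CPM, against 240.5 CPM in the control) and Ndufaf8 (17.2 CPM, against 26.7 CPM) followed Cox7a2l at the low end.

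In bipolar-like nuclei at 2 weeks 1 of 78 subunit genes was called higher, when 1.74% of all genes were, and 0 of 78 at 4 weeks, when 0.177% were. It was Atp5mpl, a small membrane subunit of complex V, with 172.3 CPM at 4 weeks and 397.4 CPM at 2 weeks, against 189.6 CPM in the control (2.10 times at 2 weeks, 1.94 to 2.26). Without cluster 9, 0 of 78 were called higher at 2 weeks. Ndufa3 had 58.5 and 103.5 CPM, against 52.5 CPM in the control, and Atp5k, another small membrane subunit of complex V, had 92.6 and 184.9 CPM, against 94.4 CPM. These 3 genes were near the control at 4 weeks. Between the treated libraries 2 of 78 subunit genes were called lower at 4 weeks than at 2 weeks, when 1.79% of all genes were, Atp5mpl at 0.43 times and Atp5e at 0.46 times. Atp5k in Müller-like nuclei had 33.6 CPM at 4 weeks and 78.0 CPM at 2 weeks, against 90.7 CPM in the control, the lowest ratio of that class at 4 weeks (0.37).

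The other classes gave scattered calls. In amacrine-like nuclei 16 of 77 subunit genes were called lower at 4 weeks (8.62% of all genes) and 4 of 77 at 2 weeks (7.94%). Over the 4 sub-clusters that every library filled, 4 of 58 were called lower at 4 weeks (3.69% of all genes there) and 0 of 60 at 2 weeks (3.51%). Over all sub-clusters the lowest at 4 weeks were Atp5j with 71.3 CPM, against 206.4 CPM in the control, Uqcrb with 66.7 CPM, against 175.0 CPM, and Ndufa8 with 34.5 CPM, against 90.1 CPM. The highest was Ndufs1, at 191.0 CPM at 4 weeks and 151.9 CPM at 2 weeks, against 127.3 CPM in the control, followed by Ndufa1 at 1.45 times the control at 4 weeks. In Müller-like nuclei 3 of 77 were called lower at 4 weeks (2.5%) and 4 of 73 at 2 weeks (4.42%), with Atp5o at 0.44 and 0.42 times and Ndufa13 at the high end at 4 weeks, at 1.60 times (1.18 to 2.21). In cone-like nuclei 0 of 77 subunit genes were called lower at either time (1.15% of all genes at 4 weeks and 3.29% at 2 weeks). Likewise 0 of 77 were called higher (0.664% and 2.69%). Outside the subunits, Cox7a2l passed 2-fold as given above. The assembly factor Ndufaf8 was called lower at both times, with 12.3 and 15.8 CPM, against 35.3 CPM in the control. In endothelial-like nuclei 0 of 26 were called lower at 4 weeks (2.77%) and 2 of 23 at 2 weeks (7.3%), Sdha and Ndufa13, while Cox5b (221.0 CPM at 4 weeks and 277.9 CPM at 2 weeks, against 119.9 CPM in the control) and Ndufa7 were called higher at 2 weeks (2.9% of all genes). That class rests on 60 to 74 nuclei per library.

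**Figure D4:**
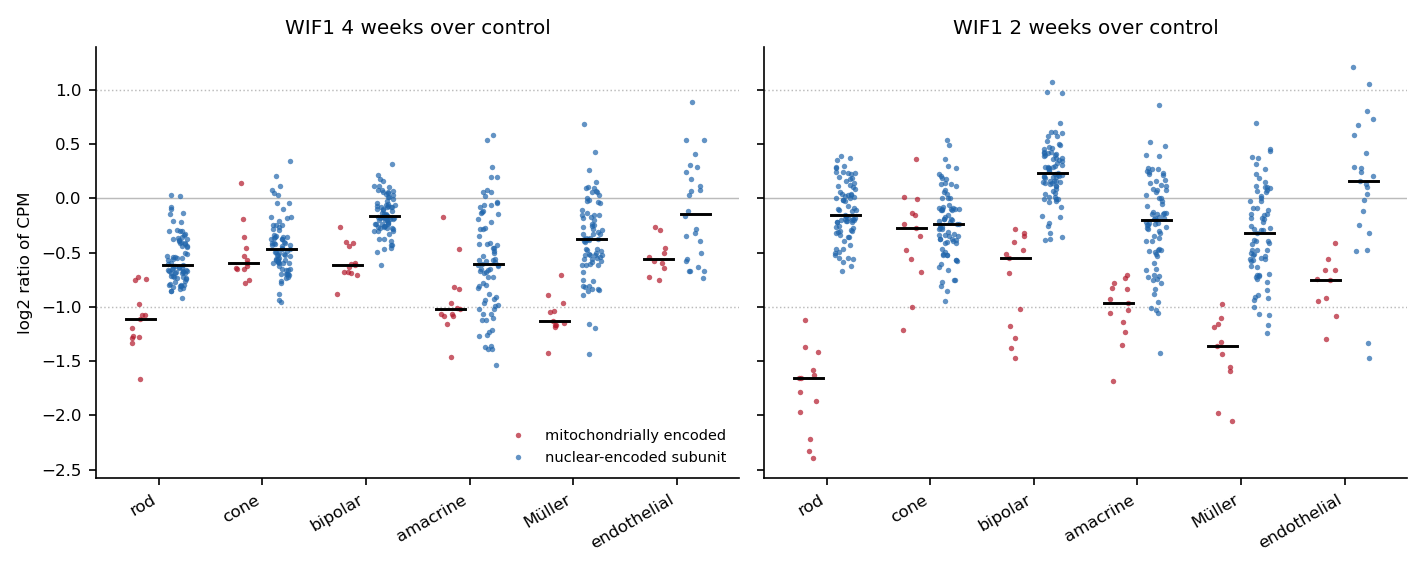
Log2 ratio of CPM over the control at 4 weeks (left) and 2 weeks (right) for each gene with at least 30 UMIs in the higher library, by class; red points are mitochondrially encoded genes, blue points nuclear-encoded subunits, black bars medians and dotted lines 2-fold. In rod-like nuclei at 2 weeks all 13 red points lie below the dotted line and no blue point does, and in bipolar-like nuclei at 2 weeks most blue points lie above 0.

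Subunits with paralogs marked cell types more than libraries. Cox4i2, the form of the complex IV regulatory subunit known from lung and from responses to low oxygen, had 395 CPM in Müller-like nuclei at 4 weeks and 315 CPM at 2 weeks, against 380 CPM in the control, from 306, 222 and 134 UMIs. In pericyte-like nuclei Cox4i2 had 318, 315 and 288 CPM. In rods it had 3.49, 4.13 and 5.06 CPM. A Cox4i2 UMI was seen in 62.0%, 47.1% and 58.4% of Müller-like nuclei, at 4 weeks, 2 weeks and in the control, with up to 9 UMIs in 1 nucleus, and in 0.388%, 0.327% and 0.660% of rod-like nuclei. Whether the Cox4i2 UMIs in rods came from free RNA was not tested, and 2.09%, 1.12% and 2.23% of bipolar-like nuclei held one. Median depths were 1025, 702 and 1164 UMIs in rods and 3286, 2400 and 3305 UMIs in Müller-like nuclei. The common form Cox4i1 was found in all classes, with 203 CPM in rods at 4 weeks and 302 CPM at 2 weeks, against 346 CPM in the control, and with 295, 357 and 434 CPM in Müller-like nuclei.

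Ndufa4l2, the paralog of Ndufa4 known as a gene of hypoxia and of mural cells, had 1004 CPM in pericyte-like nuclei at 4 weeks and 889 CPM at 2 weeks, against 1128 CPM in the control (139, 79 and 184 UMIs). The pericyte-like nuclei numbered 58, 48 and 58, under the minimum for a comparison between libraries at 2 weeks. A Ndufa4l2 UMI was seen in 72.4%, 70.8% and 65.5% of pericyte-like nuclei and in 0.101%, 0.0689% and 0.122% of rod-like nuclei. Cox6b2, the form of Cox6b known from testis, had 69.8 CPM in Müller-like nuclei at 4 weeks and 72.3 CPM at 2 weeks, against 65.2 CPM in the control, from 54, 51 and 23 UMIs, and 17.0%, 14.4% and 16.8% of these nuclei held a UMI of it. In rods that share was 0.354%, 0.345% and 0.391%. For all 3 genes the share in the class named lay far above that in rods in each library, beyond the counting intervals.

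Cones held more RNA of several subunits than rods. Cox8a, the ubiquitous form of Cox8, had 557 CPM in cone-like nuclei at 4 weeks and 706 CPM at 2 weeks, against 874 CPM in the control, where rods had 214, 301 and 337 CPM. Atp5g1, one of 3 genes for the same ring protein of complex V, had 207 CPM in cone-like nuclei at 4 weeks and 287 CPM at 2 weeks, against 381 CPM in the control, and in rods 83, 136 and 136 CPM. Both genes were lowest at 4 weeks in cones. The muscle forms Cox6a2, Cox7a1 and Cox8b and the testis forms Cox7b2 and Cox8c were at or near 0. Cox8c had 0 UMIs in every class and library, and over all nuclei kept Cox7a1 had 2.55 CPM at 4 weeks and 1.88 CPM at 2 weeks, against 2.49 CPM in the control.

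**Figure D5:**
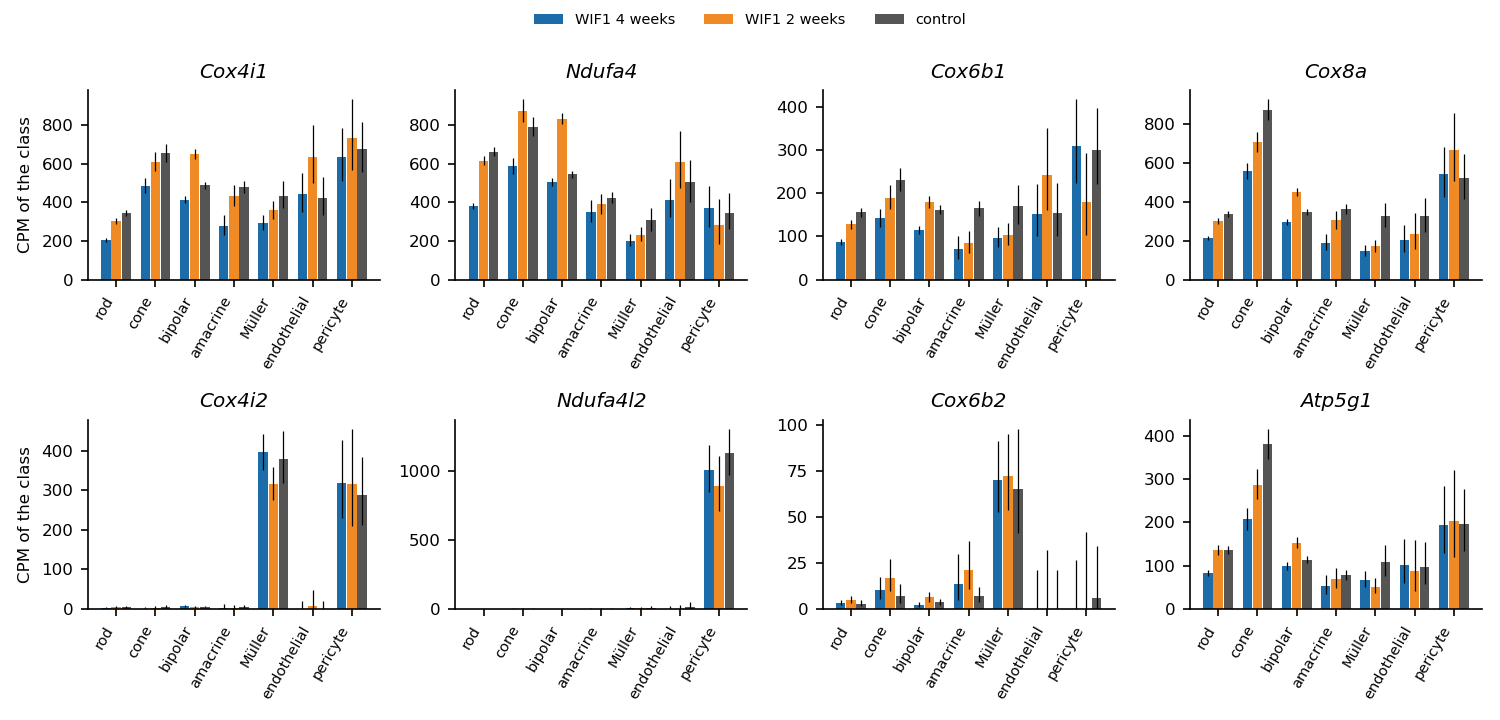
CPM of 8 subunit genes by class and library; bars are single libraries and lines exact 95% Poisson intervals, and the vertical scale differs between panels, since levels were not compared between genes. Cox4i2 bars stand in Müller-like and pericyte-like nuclei, Ndufa4l2 bars in pericyte-like nuclei and Cox6b2 bars mainly in Müller-like nuclei, while Cox8a and Atp5g1 are tallest in cone-like nuclei of the control.

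Chromatin at the starts of these genes lay near the control in rods and bipolar-like nuclei, on a measure other than that of RNA. Peaks were listed separately for each library, and the part of this in the ratios was not tested. The deposited peak lists held 75686 peaks at 4 weeks, 103911 at 2 weeks and 54429 in the control, with 0 on the mitochondrial chromosome, and 86 of the 94 nuclear-encoded genes had a peak within 1000 bases of their start in each library. Counts in promoter peaks of the subunit genes were 0.987 times the control in rods at 4 weeks (0.979 to 0.995) and 0.947 times at 2 weeks (0.940 to 0.955), as a share of all promoter counts. In bipolar-like nuclei they were 0.98 and 0.91 times, while the RNA of the subunit genes at 2 weeks was above the control, at 1.214 times. In rods at 4 weeks 0 of 77 promoters were called lower, when 5.62% of all promoters were, and at 2 weeks 1 of 77, Cox4i2, was called lower, when 8.05% were. Cox4i2 was the clearest difference between classes: its promoter had 96.6 CPM in Müller-like nuclei at 4 weeks and 68.0 CPM at 2 weeks, against 59.7 CPM in the control, and 2.7, 1.1 and 4.9 CPM in rods, following the class in which its RNA was found. The promoter of Cox7a2l had 118 CPM in rods at 4 weeks and 122 CPM at 2 weeks, against 109 CPM in the control, while its RNA was at 0.62 and 0.49 times the control.

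Promoter sequences are shown for 3 genes described above, Atp5k, high in bipolar-like nuclei at 2 weeks, Cox8a, high in cones, and Cox7a2l, lowest in rods at 2 weeks. The fourth, of the complex IV subunit Cox6a1, was chosen because it holds the same pair of motifs as that of Atp5k, so the pair they share is no result. Each runs 5′ to 3′ on the gene's strand, from 250 bases before to 50 bases after the start in RefSeq (GRCm38.p6). Capitals mark 2 motifs of factors known to act on respiratory chain genes, searched on both strands. They are the half-site gcgca followed at once by tgcgc, for NRF1, and ccggaag or its reverse complement, for ETS factors such as GABP. The 4 sequences lie on the minus strand, at chr5:108434350-108434649 (Atp5k), chr5:115348909-115349208 (Cox6a1), chr19:7217567-7217866 (Cox8a) and chr17:83514284-83514583 (Cox7a2l).
Atp5k: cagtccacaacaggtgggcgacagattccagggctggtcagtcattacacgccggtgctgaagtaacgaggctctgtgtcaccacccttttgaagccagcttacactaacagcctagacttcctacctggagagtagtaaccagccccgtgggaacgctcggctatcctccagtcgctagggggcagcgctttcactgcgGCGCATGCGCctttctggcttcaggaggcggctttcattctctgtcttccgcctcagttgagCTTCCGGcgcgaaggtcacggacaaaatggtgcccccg
Cox6a1: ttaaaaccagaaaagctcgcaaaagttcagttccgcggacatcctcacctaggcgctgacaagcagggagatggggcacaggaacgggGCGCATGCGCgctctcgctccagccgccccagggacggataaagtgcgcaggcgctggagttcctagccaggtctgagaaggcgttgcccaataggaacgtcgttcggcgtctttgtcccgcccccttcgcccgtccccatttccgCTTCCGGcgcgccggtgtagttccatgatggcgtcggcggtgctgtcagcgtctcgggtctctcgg
Cox8a: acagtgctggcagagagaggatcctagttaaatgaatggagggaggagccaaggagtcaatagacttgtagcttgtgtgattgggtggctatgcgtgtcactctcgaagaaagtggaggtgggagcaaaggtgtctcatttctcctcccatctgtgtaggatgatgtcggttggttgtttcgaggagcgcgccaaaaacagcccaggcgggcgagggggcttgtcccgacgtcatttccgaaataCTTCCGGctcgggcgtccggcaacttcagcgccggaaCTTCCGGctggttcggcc
Cox7a2l: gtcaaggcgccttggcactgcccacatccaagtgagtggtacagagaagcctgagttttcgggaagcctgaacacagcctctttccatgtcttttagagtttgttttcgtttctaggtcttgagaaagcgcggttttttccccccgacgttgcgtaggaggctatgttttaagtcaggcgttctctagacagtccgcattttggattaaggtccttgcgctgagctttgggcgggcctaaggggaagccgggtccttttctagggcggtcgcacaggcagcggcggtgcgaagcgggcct

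Atp5k and Cox6a1 each held an NRF1 motif ahead of an ETS motif, Cox8a held 2 ETS motifs, and Cox7a2l held neither. A RefSeq promoter within 1000 bases of the listed start was found for 72 of the 94 nuclear-encoded genes, 64 of them subunits. The NRF1 motif was present in 4 of the 64 subunit promoters (6.25%), Atp5k, Cox6a1, Ndufa11 and Uqcrc1, against 1.29% of all 17751 promoters. The ETS motif was present in 16 of 64 (25%), against 11.8% of all, and aagatggcg, a motif of YY1, in 7 of 64 (10.9%), against 1.99% of all. The 64 promoters were also richer in CpG, with a median of 18.5 CpG in 300 bases, against 12 over all promoters. The motif shares were not compared at matched base composition, and a match of letters is a description and not a binding site.

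Other mitochondrial and metabolic genes were described beside the chain. In rods, the median log2 ratio at 4 weeks and 2 weeks was -0.38 and -0.23 for carriers and cytochrome c, -0.24 and 0.07 for proteins of the mitochondrial ribosome, -0.04 and -0.08 for the citric acid cycle, and -0.08 and 0.03 for assembly factors outside the rule. Genes of mitochondrial gene expression, among them the polymerase and helicase of mitochondrial DNA, had medians of 0.07 and 0.02, and regulators of mitochondrial biogenesis 0.15 and -0.03. These lists thus lay nearer to the all-gene medians of 0.02 and 0.07 than the mitochondrially encoded genes did. Outside mitochondria, glycolysis had medians of -0.39 and -0.18, and proteins of the cytosolic ribosome, which are made from short abundant RNAs, -0.58 and -0.54.

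Few genes of these lists were called in rods, 0 of them at 4 weeks (background 1.03% lower and 0.302% higher). At 2 weeks Twnk, the mitochondrial DNA helicase, was at 2.14 times the control, Esrra, a nuclear receptor that acts on respiratory chain genes, at 2.09 times, Mrpl9 at 2.41 times and Hk2, the hexokinase of photoreceptors, at 2.06 times. Each was the 1 gene called higher of the 18, 10, 78 and 17 in its list with enough UMIs, in that order, when 2.79% of all genes were called higher, so these counts lie near the background. Of 79 genes of the cytosolic ribosome 10 were called lower, when 1.75% of all genes were. Esrra was also called higher at 2 weeks in bipolar-like nuclei (2.03 times), when 1.74% of all genes were.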

How the data were processed

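Nuclei of 3 retina libraries were read for RNA and open chromatin. The values used are UMI counts per gene and fragment counts per peak, as the authors deposited them in filtered matrices with no normalization; per the submitters' processing notes they came from Cell Ranger ARC 2.0.1 on mm10, with Seurat 5.0.1 and Signac 1.12.0 also named. Peaks were listed separately for each library. Parameters of counting and multi-mapping are not given in the sources used here.

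Nuclei with at least 500 UMIs and 300 genes were clustered (scanpy 1.11.5, numpy 2.4.6, scipy 1.17.1) after scaling to 10000 UMIs and a log transform, on 2000 variable genes with the respiratory chain genes left out, with 30 principal components, 15 neighbours and Leiden resolution 1. Clusters were named where at least 3 fixed markers were 2-fold enriched. Doublets were called with Scrublet scores at a rate of 0.8% per 1000 barcodes, and nuclei over 10% mitochondrial UMIs were then left out. Classes with at least 50 nuclei in each library were compared.

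Levels are CPM, UMIs summed over the nuclei of a class and scaled to the same total. With 1 library per group no test between groups was made, since nuclei are not replicates; ratios carry exact 95% intervals for counting error. Medians used genes with at least 10 UMIs over the libraries compared. Named genes were all mitochondrially encoded genes, the paralogous subunits, the 3 highest and 3 lowest ratios of a class and comparison (given here in part), the gene with the most UMIs in each complex, and genes of other lists past 2-fold. The genes and lists were chosen with earlier results of these data known. The ratio step was tested on simulated data. Alternatives varied the cap, depth, doublets, clustering genes, class names, CPM denominator, fold, thinning, promoter window and removal of rod RNA.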

Additional observations from a re-analysis of the deposited data

Results flagged for a closer look

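Nuclear-encoded subunit RNA was above the control at 2 weeks in bipolar-like nuclei, at 1.214 times, and in endothelial-like nuclei, at 1.236 times, while it was below the control in rod-like, cone-like, amacrine-like and Müller-like nuclei. The difference between classes was not tested, since each value rests on 1 library per group. Without cluster 9 the bipolar-like value was 1.06 times, and over the 4 amacrine-like sub-clusters that every library filled the amacrine-like value was 1.15 times, above the control as well. The rod-like value was also 1.06 times under a cap of 5%, and the level was above the control in 5 of 9 rod-like clusters. Müller-like sub-clusters lay on either side of the control, as given above. Rod RNA in endothelial-like nuclei was an estimated 19.4% of UMIs at 2 weeks, against 26.1% in the control.

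The other flagged values come from barcodes that the comparisons left out. Nuclear-encoded subunits took 1.66% of UMIs in barcodes with fewer than 500 UMIs or 300 genes at 2 weeks, against 1.12% in the 7 such barcodes of the control. Those 7 held 57.5% mitochondrially encoded UMIs, where the 2 weeks barcodes held 4.81%, and of the UMIs that were not mitochondrially encoded nuclear-encoded subunits took 1.74% at 2 weeks, against 2.63% in the control, the other direction. They took 1.28% of UMIs in called doublets at 2 weeks, against 1.25% in the control, and 1.15% in nuclei of unnamed clusters at 2 weeks, against 1.04% in the control. Mitochondrially encoded RNA took 15.6% of UMIs in nuclei over the cap at 2 weeks, against 14.4% in the control, where the cap itself sets the lower end.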

How the results depend on the processing

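In rod-like nuclei the mitochondrially encoded level stayed below the control under every alternative. With no cap it was 0.420 times the control at 4 weeks and 0.255 times at 2 weeks; in the same order it was 0.538 and 0.498 with a cap of 5%, 0.434 and 0.369 with at least 1000 UMIs per nucleus, and 0.418 and 0.313 with CPM computed without mt- genes, Gm42418 and AY036118. It was 0.461 at 4 weeks with called doublets kept and 0.306 at 2 weeks with classes from the highest marker score. The nuclear-encoded level at 4 weeks was 0.667 with no cap, 0.751 with a cap of 5%, 0.666 with at least 1000 UMIs and 0.666 on the other denominator. At 2 weeks it was 0.889 with no cap, 0.898 on that denominator, and turned to 1.06 with a cap of 5%; the cause was not tested. Taken against the control, the ratio of mitochondrially to nuclear-encoded UMIs was 0.716, 0.652 and 0.671 at 4 weeks (cap of 5%, 1000 UMIs, doublets kept), and 0.286, 0.472, 0.399 and 0.335 at 2 weeks (no cap, cap of 5%, 1000 UMIs, marker score). In single rod-like clusters 0, 1, 2, 3, 4, 5, 6, 12 and 26, an alternative chosen after seeing the data, the mitochondrially encoded level at 4 weeks was 0.550, 0.433, 0.460, 0.467, 0.496, 0.550, 0.624, 0.509 and 0.608 times the control, and at 2 weeks 0.440, 0.336, 0.397, 0.371, 0.415, 0.522, 0.468, 0.363 and 0.307 times. In the same clusters the nuclear-encoded level was 0.824, 0.754, 0.771, 0.782, 0.736, 0.874, 0.730, 0.681 and 0.828 at 4 weeks, and 0.973, 1.05, 0.979, 1.04, 1.04, 1.22, 0.977, 1.002 and 0.993 at 2 weeks. At 1.5-fold, 41 nuclear-encoded subunits were called lower in rods at 4 weeks and 2 at 2 weeks, against 0 at 2-fold. In the other classes 83 of 83 mitochondrially encoded values, 78 of 83 nuclear-encoded values and 67 of 69 ratios stayed on their side of 1. Values whose interval excluded 1 as reported and that turned were the ratio in cone-like nuclei at 2 weeks (0.963 with a cap of 5%, 0.956 with the marker score) and the nuclear-encoded level in amacrine-like nuclei at 2 weeks (1.01 with a cap of 5%, and 1.15 over the 4 sub-clusters with at least 10 nuclei in every library, chosen after seeing the data, as was leaving out bipolar cluster 9). The rod profile was subtracted in non-rod classes alone. No paired analysis was possible because each group has 1 library. Depth limits single genes in endothelial-like, pericyte-like and Müller-like nuclei most.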

Other observations

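Pericyte-like and microglia-like nuclei were too few for a comparison in at least 1 library. In pericyte-like nuclei mitochondrially encoded RNA took 3.92% of UMIs at 4 weeks (58 nuclei) and 2.36% at 2 weeks (48 nuclei), against 4.88% in the control (58 nuclei), and nuclear-encoded subunits took 1.69%, 1.77% and 1.78%. In microglia-like nuclei mitochondrially encoded RNA took 2.06% at 4 weeks (40 nuclei) and 2.59% at 2 weeks (126 nuclei), against 3.30% in the control (31 nuclei). Lymphocyte-like nuclei were found at 2 weeks alone, where they numbered 24.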
